A study of Mus musculus with 8 samples.

Results

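The glucocorticoid receptor gene Nr3c1 and 6 genes that work with it or respond to it were followed in invariant natural killer T (iNKT) cells, which are T cells with a semi-invariant receptor for lipids presented by CD1d. The 7 genes are the receptor, its chaperone partners Fkbp4 and Ptges3, and the target genes Tsc22d3, Fkbp5, Sgk1 and Ddit4, taken from a table of 22549 genes. They were chosen with the levels in skin and spleen in view, so those levels are given as a description, without a test. Bulk RNA was sequenced from iNKT cells of the skin (4 libraries) and of the spleen (4 libraries). All of the mice carried CCR10+/EGFP, a knock-in that puts EGFP at 1 Ccr10 allele. The labels name no strain, age, treatment or sorting gate, and do not say whether the numbered libraries came from separate animals, so each p-value rests on a spread among libraries that may be purely technical.

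The receptor waits in the cytoplasm in a complex with the chaperone HSP90, the co-chaperone p23 (encoded by Ptges3) and an immunophilin of the FKBP class. FKBP51, encoded by Fkbp5, keeps hormone affinity low, and its exchange for FKBP52, encoded by Fkbp4, accompanies transport to the nucleus. There the receptor binds DNA and induces genes such as Tsc22d3, Sgk1, Ddit4 and, as negative feedback, Fkbp5 itself. In T cells glucocorticoids are known for restraining cytokine transcription, for inducing death of thymocytes and for raising the interleukin 7 receptor.

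The DNA letters that the receptor recognises best are a pair of inverted 6-base elements with 3 bases between them, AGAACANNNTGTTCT. RefSeq promoter windows of the mouse build GRCm38.p6, each from 250 bases before to 50 bases after an annotated start, were at hand for 6 of the 7 genes, 13 windows in all. Nr3c1 had none. The complete 15-base palindrome stood in 3 of 32851 windows of all genes (0.00913%), and 1 of these 3 belonged to Sgk1. This window is printed because it alone among the 13 holds the complete palindrome, which is in capitals and begins 189 bases before the start, at chr10:21993640-21993939 on the plus strand.
Sgk1: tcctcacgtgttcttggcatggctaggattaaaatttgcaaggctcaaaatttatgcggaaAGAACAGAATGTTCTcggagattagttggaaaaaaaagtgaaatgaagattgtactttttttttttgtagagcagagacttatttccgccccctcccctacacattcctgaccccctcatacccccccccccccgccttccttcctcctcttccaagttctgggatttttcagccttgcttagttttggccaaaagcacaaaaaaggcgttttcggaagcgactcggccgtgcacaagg

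The single 6-base element AGAACA, searched on both strands, was common, in 6233 of 32851 windows (19.0%). It stood in 3 of the 6 windows of Sgk1, including that of the palindrome, which is made of it, and in 1 of the 3 windows of Tsc22d3. The element of Tsc22d3 is shown beside that of another Sgk1 window, in the 5′ to 3′ direction of each gene with the element in capitals. The stretch of Tsc22d3 lies at chrX:140600690-140600719 (minus strand) and that of Sgk1 at chr10:21992198-21992227 (plus strand).
Tsc22d3: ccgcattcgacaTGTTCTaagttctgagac
Sgk1: aaagtgggactcAGAACAgaaaggcaatag
The windows of Fkbp5, Fkbp4, Ddit4 and Ptges3, 1 each, held neither the palindrome nor the single element. A looser 13-base core, GNACANNNTGTNC, was in 156 of 32851 windows (0.475%) and, among these genes, only at the Sgk1 palindrome, which it overlaps. Such matches describe letters in short windows. They say nothing of enhancers farther away or of binding in these cells.

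Levels are given as CPM, the counts of a gene per 1000000 counts of the library, with library sizes scaled by TMM, and fold changes are skin over spleen. Total expected counts ran from 7191131 to 9791973 per library. Genes with a count numbered 5302 to 6012 in skin libraries and 6415 to 10094 in spleen libraries. Of the T cell and iNKT markers, 9 of 10 were matched to the table and all 9 had counts in both tissues, with a summed level of 3119 to 4068 CPM in skin and 4374 to 6347 CPM in spleen. Keratinocyte markers, of which 7 of 10 had a count in skin and 3 of 10 in spleen, summed to 181 to 953 CPM in skin and 0 to 29.5 CPM in spleen, with Trp63 and Dsp at 0 throughout. B cell markers summed to 0 in all skin libraries and to 31.5 to 166 CPM in spleen, with Pax5 at 0. Erythroid markers summed to 0 to 2.12 CPM in skin and 111 to 274 CPM in spleen. Macrophage and monocyte markers summed to 0 to 92.8 CPM in skin and 0 to 48.5 CPM in spleen. Fibroblast markers summed to 0 to 31.9 CPM in skin and 0 in spleen, and mast cell markers had no count. Spleen replicate 4 stood apart in 16 immediate early genes, the first to be switched on when a cell is stimulated. They summed to 9811 to 18837 CPM in skin, to 863, 968 and 937 CPM in spleen replicates 1 to 3, and to 6959 CPM in spleen replicate 4. In bulk libraries fewer expressing cells and less RNA per cell cannot be told apart.

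The receptor gene itself was measured in every library. Nr3c1 stood at 588, 618, 948 and 1074 CPM in skin replicates 1 to 4, and at 116, 74.7, 181 and 159 CPM in spleen replicates 1 to 4. Every skin library was above every spleen library, and within either tissue the highest library was no more than 2.43 times the lowest. The means were 807 ± 242 CPM in skin and 133 ± 47.2 CPM in spleen (SD, n = 4 each), a ratio of 6.08 and a fitted log2 fold change of 2.60 ± 0.36 (SE). Without spleen replicate 4 the log2 fold change was 2.70, and over the fits that each left out 1 library it ran from 2.39 to 2.79. The within-tissue spread of Nr3c1 on the log2 scale was 0.44 (SD) in skin, where genes at a like level, within 1.5-fold of its mean, had a median of 0.54. In spleen it was 0.57, where such genes had a median of 0.73. All 8 values of Nr3c1 were not whole, as happens in counts per gene where the counting software divides reads between genes. The related mineralocorticoid receptor gene Nr3c2, which binds the same hormones, had no count in any of the 8 libraries.

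**Figure D1:**
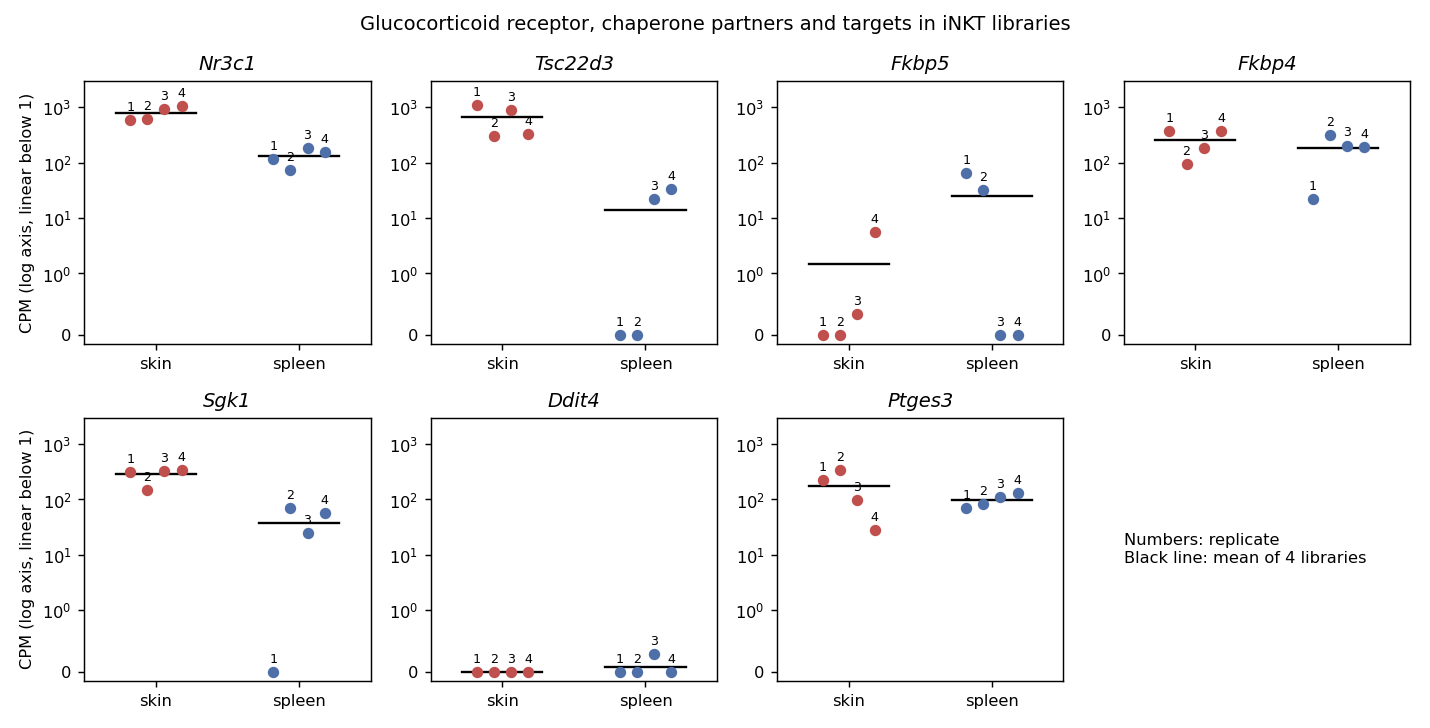
CPM of the 7 genes in each library, with skin left and spleen right in each panel, on a log axis that is linear below 1; points are libraries numbered by replicate and black lines are means of 4 libraries. Nr3c1, Tsc22d3 and Sgk1 lie higher in all 4 skin libraries than in any spleen library, Fkbp4 and Ptges3 overlap between the tissues, the highest Fkbp5 points are spleen replicates 1 and 2, and Ddit4 lies at 0 in 7 of the 8 libraries.

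Tsc22d3 encodes GILZ, a leucine zipper protein through which glucocorticoids hold back NF-kappaB and AP-1 activity. It stood at 1122, 311, 909 and 329 CPM in skin replicates 1 to 4, against 0, 0, 22.5 and 33.6 CPM in spleen replicates 1 to 4. The lowest skin library was above the highest spleen library, and the skin libraries themselves fell into a higher pair (1 and 3) and a lower pair (2 and 4). Means were 668 ± 411 CPM in skin and 14.0 ± 16.8 CPM in spleen (SD, n = 4 each), a ratio of 47.6 and a fitted log2 fold change of 5.57 ± 1.93 (SE). The spread within skin, 0.97 on the log2 scale (SD), was larger than that of 90.7% of 281 genes at a like level. The keratinocyte marker sums of skin replicates 1 to 4 were 892, 334, 953 and 181 CPM, so that the same replicates, 1 and 3, were highest in both measures, and the part of such RNA in the Tsc22d3 level was not tested. The zeros in spleen replicates 1 and 2 were common for genes at that level. Of 1623 and 1596 genes whose mean in the other 3 spleen libraries was within 1.5-fold of that of Tsc22d3, 53.6% and 47.4% also stood at 0 in spleen replicates 1 and 2. Without spleen replicate 4 the log2 fold change was 6.47.

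Sgk1, whose promoter window carries the palindrome printed above, encodes a kinase that phosphorylates NDRG1, NEDD4-2 and FOXO proteins. It stood at 310, 150, 333 and 343 CPM in skin replicates 1 to 4, against 0, 69.2, 25.2 and 57.4 CPM in spleen replicates 1 to 4. All 4 skin libraries were above all 4 spleen libraries, with skin replicate 2 the lowest in skin and spleen replicate 1 without a count. Means were 284 ± 90.2 CPM in skin and 38.0 ± 31.4 CPM in spleen (SD, n = 4 each), a ratio of 7.48 and a fitted log2 fold change of 2.90 ± 1.45 (SE). Of 2253 genes at a like level in the other spleen libraries, 35.2% were at 0 in spleen replicate 1 too. Leaving out 1 library gave log2 fold changes from 2.49 to 3.35. Among its paralogs, Sgk2 had no count in any library. Sgk3 stood at 0, 0, 0 and 0.424 CPM in skin replicates 1 to 4 and at 80.7, 0.114, 21.2 and 37.3 CPM in spleen replicates 1 to 4, and was too sparse to be tested.

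The other pair of targets did not share this pattern. Fkbp5 stood at 0, 0, 0.341 and 5.65 CPM in skin replicates 1 to 4, and at 66.5, 32.2, 0 and 0 CPM in spleen replicates 1 to 4. The tissues overlapped, and spleen replicates 1 and 2, which carried Fkbp5, were the spleen libraries without Tsc22d3. Only 3 libraries had 10 or more counts, so Fkbp5 did not pass the filter on low counts and has no fitted value. The zeros of spleen replicates 3 and 4 were less common at that level than those of Tsc22d3: of 2013 and 1930 genes at a like level in the other spleen libraries, 14.2% and 4.25% stood at 0. Annotated non-coding transcripts overlap Fkbp5, some on the opposite strand, and since the library kit does not mark the strand, their reads cannot be told apart. Ddit4 encodes REDD1, an inhibitor of the growth kinase complex mTORC1 that stress and hypoxia also induce. It had no count in any skin library, which at a limit of 3 counts allows up to 0.330 to 0.454 CPM. In spleen it had 2 counts in replicate 3 (0.285 CPM) and none in replicates 1, 2 and 4, so no difference was detectable at this depth. Its paralog Ddit4l had no count in either tissue.

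The chaperone partners overlapped between the tissues. Fkbp4 stood at 370, 94.2, 184 and 371 CPM in skin replicates 1 to 4, and at 22.3, 311, 205 and 196 CPM in spleen replicates 1 to 4. Spleen replicate 1 was far below the other spleen libraries and skin replicate 2 was lowest in skin. The means of Fkbp4 were 255 ± 139 CPM in skin and 184 ± 120 CPM in spleen (SD, n = 4 each), with a fitted log2 fold change of 0.47 ± 0.75 (SE). Its spread within spleen exceeded that of 90.7% of 1269 genes at a like level. Ptges3 stood at 224, 345, 96.7 and 28.2 CPM in skin replicates 1 to 4, and at 69.3, 82.4, 111 and 133 CPM in spleen replicates 1 to 4. Its skin libraries spanned 12.2-fold and its spleen libraries 1.93-fold, and the spleen range lay inside the skin range. The means of Ptges3 were 173 ± 140 CPM in skin and 99.1 ± 28.8 CPM in spleen (SD, n = 4 each), with a fitted log2 fold change of 0.81 ± 0.82 (SE). For both genes the SE was larger than the fold change on the log2 scale. Among the other enzymes named for prostaglandin E synthesis, Ptges had no count, and Ptges2 averaged 13.2 ± 26.5 CPM in the skin and 41.4 ± 35.9 CPM in the spleen libraries (SD, n = 4 each; not called by edgeR, adjusted p = 0.998).

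Across all genes, edgeR's quasi-likelihood test tested 6920 genes and called 128 higher in skin (1.85%) and 248 lower (3.58%), taking 0.05 as the limit of the Benjamini-Hochberg adjusted p. Of the 7 genes, 5 passed the filter on low counts. The 4 skin libraries did not overlap the 4 spleen libraries for 3 of the 5, all higher in skin, where 6.11% of all genes tested were higher and 13.4% lower without overlap. Since the genes were picked on this contrast, this count only describes them. The pathway lists below were chosen with earlier results of these data known, so their shares of calls are likewise a description, without a test of the lists.

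The HSP90 machinery that folds the receptor was higher in skin in part. Of 20 listed chaperones and co-chaperones 19 were tested, 5 rose (26.3% of those tested, against 1.85% of all genes) and 0 fell, also at an unadjusted p under 0.05 and with DESeq2 and limma-voom, while 14 did not pass. The 5 were Dnaja1, Hspa8, Hsp90ab1, Hsp90aa1 and Hspa4. Dnaja1, an HSP40 that loads clients onto HSP70, stood at 1963, 2457, 1713 and 1785 CPM in skin replicates 1 to 4, and at 287, 225, 375 and 400 CPM in spleen replicates 1 to 4. The tissues were far apart (2.62 ± 0.23 on the log2 scale, SE; adjusted p = 0.00128 with edgeR). Dnaja1 was called in all 8 fits that left out 1 library. Hspa8, the constitutive HSP70, was 2.58-fold higher, with a mean of 4211 ± 684 CPM over skin libraries and of 1634 ± 268 CPM over spleen libraries (edgeR adjusted p = 0.00468), also called in all 8 of those fits. Hsp90ab1 was 2.95-fold higher (edgeR adjusted p = 0.0229), Hsp90aa1 3.63-fold (0.0423) and Hspa4 2.21-fold (0.0411). The number of calls depended on single libraries. The list had 5 calls higher without skin replicate 4, 3 without skin replicate 1, and 2 with each of the other 6 libraries left out. Hsp90ab1 was called in 2 of the 8 fits, Hsp90aa1 in 1 and Hspa4 in 0. Without skin replicate 3, 1 gene was called lower. The list had 7 calls higher with DESeq2 and 7 with limma-voom. With edgeR it had 4 without a filter on low counts and 2 with a block for the replicate number. It had 1 without the 50 most abundant genes, which hold Hspa8 and Hsp90ab1. Under the block Hspa8 was not called (edgeR adjusted p = 0.0589). Without a call from edgeR, the skin libraries were all above the spleen libraries for Dnajb1 (450 ± 191 CPM in skin, 62.7 ± 54.7 CPM in spleen) and for Dnaja2 (635 ± 256 CPM in skin, 262 ± 48.7 CPM in spleen; SD, n = 4 each). DESeq2 (adjusted p = 0.00208 for Dnajb1 and 0.00497 for Dnaja2) and limma-voom (adjusted p = 0.0420 for Dnajb1 and 0.0484 for Dnaja2) called both. Heat shock chaperones also respond to handling, and the immediate early sums given above differed between the tissues. The part of handling was not tested.

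Other genes known to be induced by glucocorticoids numbered 36, of which 31 had a count and 23 were tested. Of these, 4 rose (17.4% of those tested, against 1.85% of all genes), 0 fell and 19 did not pass. At an unadjusted p under 0.05 with edgeR, 7 were higher and 1 lower, against 353 and 507 of all 6920 genes tested. DESeq2 called 6 higher and 1 lower, and limma-voom 5 higher and 1 lower. With edgeR 2 were called higher without a filter on low counts and 1 with a block for the replicate number. Without the 50 most abundant genes, which hold Rgs2, edgeR called 1 higher. The median fitted log2 fold change of the 23 was 1.85, against -0.29 over all 6920 genes. The immediate early genes, a separate list of 16 whose sums per library are given above, had 11 tested, 10 of them with a log2 fold change above 0, and a median of 2.54. Their part in the change of the induced list was not tested. Rgs2, a brake on G protein signalling, was 46.8-fold higher, with means of 5597 ± 225 CPM for skin and 120 ± 82.3 CPM for spleen (SD, n = 4 each; edgeR adjusted p = 0.00128), and was called in all 8 fits without 1 library. Cdkn1a, the cell cycle inhibitor p21, stood at 663, 802, 857 and 286 CPM in skin replicates 1 to 4, against 0, 0, 0 and 2.53 CPM in spleen replicates 1 to 4. It had a count in 1 spleen library only (edgeR adjusted p = 0.0343), and was called in 2 of the 8 fits without 1 library, those without skin replicate 4 and without spleen replicate 4. Cebpb, a transcription factor of the acute response, was 4.61-fold higher (422 ± 169 CPM in skin, 91.5 ± 49.4 CPM in spleen; edgeR adjusted p = 0.0473) and was called in 0 of those 8 fits. Txnip, the thioredoxin inhibitor, was 3.61-fold higher (960 ± 204 CPM in skin, 266 ± 158 CPM in spleen; edgeR adjusted p = 0.0486) and was likewise called in 0. Among spleen libraries all 4 of these called genes were highest in replicate 4, the library with the high immediate early sum. There Rgs2 stood at 239 CPM, Cebpb at 157 CPM and Txnip at 428 CPM. In spleen replicates 1 to 3 Rgs2 ran from 52.6 to 104 CPM, Cebpb from 52.3 to 103 CPM and Txnip from 127 to 374 CPM. Whether these levels are related to that sum was not tested. The list had 4 calls higher without spleen replicate 4, 2 without skin replicate 4, and 1, that of Rgs2, with each of the other 6 libraries left out. Btg1, an antiproliferative gene of resting lymphocytes, was above every spleen library in all 4 skin libraries and narrowly missed the limit, at 1302 ± 321 CPM for skin and 639 ± 168 CPM for spleen (SD, n = 4 each; edgeR adjusted p = 0.051).

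The other targets of the list named here were not called by edgeR, and Klf9 and Mt1 among them were too sparse to be tested. Klf9, a transcription factor gene, stood at 8.78, 36.2, 0 and 0 CPM in skin replicates 1 to 4 and at 0, 0, 0 and 1.19 CPM in spleen replicates 1 to 4. Per1, a clock gene, stood at 0, 22.3, 39.7 and 33.5 CPM in skin replicates 1 to 4, against 0, 1.03, 7.70 and 8.77 CPM in spleen replicates 1 to 4, and overlapped between the tissues. Mt1, a metallothionein gene, had a count in skin replicate 1 (3.33 CPM) and in no other library. Zbtb16, the lineage factor of iNKT cells and a target in other tissues, averaged 44.5 ± 25.7 CPM over the skin and 66.6 ± 63.0 CPM over the spleen libraries. The interleukin 7 receptor gene Il7r averaged 262 ± 267 CPM over the skin and 629 ± 131 CPM over the spleen libraries, which overlapped (edgeR adjusted p = 0.69). Errfi1, a feedback inhibitor of the EGF receptor, averaged 118 ± 121 CPM over the skin and 3.01 ± 6.02 CPM over the spleen libraries. The chemokine receptor gene Cxcr4 averaged 40.5 ± 37.6 CPM over the skin and 2.06 ± 2.81 CPM over the spleen libraries (SD, n = 4 each). For both, every skin library was above every spleen library and neither edgeR, DESeq2 nor limma-voom made a call. Xdh, xanthine dehydrogenase, had no count in skin and 35.1, 279, 9.55 and 60.6 CPM in spleen replicates 1 to 4. Its level was at least 248-fold lower, taking 3 counts in each skin library as the limit, or at least 90.6-fold without spleen replicate 2. It was not called by edgeR (adjusted p = 0.0551), and DESeq2 (adjusted p = 3.00e-08) and limma-voom (adjusted p = 0.0217) called it lower. Dusp1, a phosphatase gene that is also an immediate early gene, was, like the called targets above, highest in replicate 4 among spleen libraries. It stood at 759, 924, 3184 and 3648 CPM in skin replicates 1 to 4, against 107, 239, 0.998 and 2032 CPM in spleen replicates 1 to 4, and overlapped between the tissues.

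**Figure D2:**
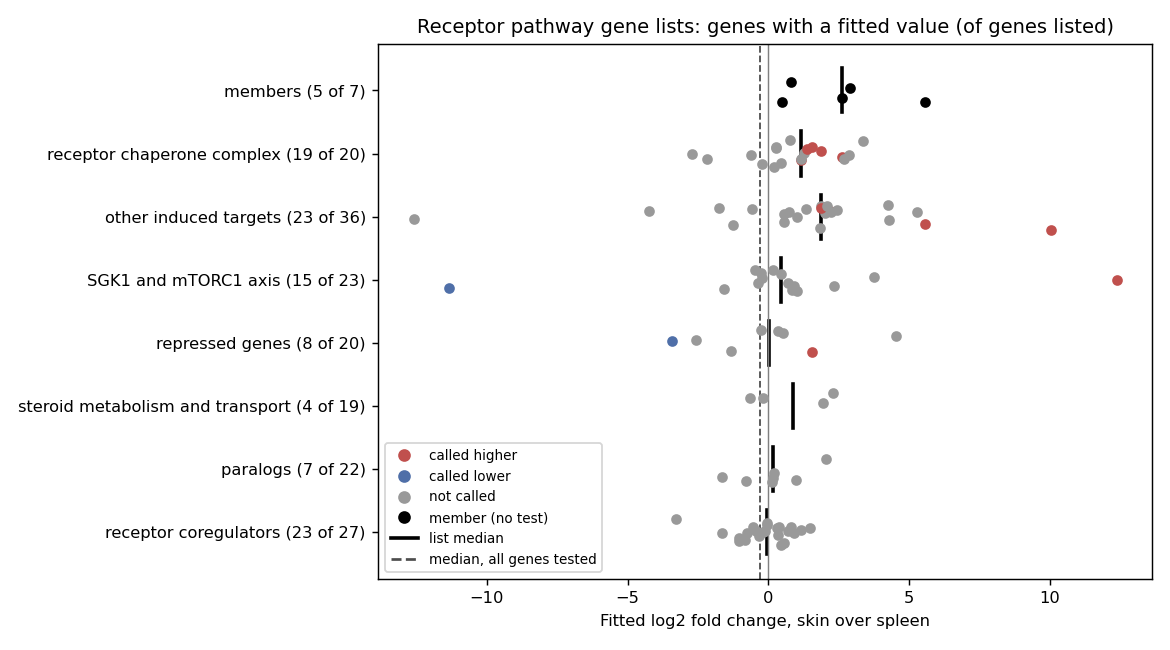
Fitted log2 fold change, skin over spleen, of every tested gene of the receptor genes and 7 pathway lists; red points were called higher, blue lower, grey not called, black points are the chosen genes without a test, black bars are list medians and the dashed line is the median of all 6920 genes (-0.29). The chaperone and induced lists have medians of 1.14 and 1.85, and the repressed and coregulator lists of 0.03 and -0.06.

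Of 20 genes that glucocorticoids are known to repress 12 had a count and 8 were tested. With edgeR 1 rose (12.5%, against 1.85% of all genes), 1 fell (12.5%, against 3.58%) and 6 did not pass. Icam1, an adhesion molecule, stood at 883, 1529, 1138 and 794 CPM in skin replicates 1 to 4, and at 307, 450, 315 and 429 CPM in spleen replicates 1 to 4. It was 2.89-fold higher without overlap (edgeR adjusted p = 0.0243), a call kept without skin replicate 1 or skin replicate 4 and lost in each of the other 6 fits without 1 library. Ccl5, a chemokine of effector T cells, stood at 153, 29.2, 70.0 and 45.2 CPM in skin replicates 1 to 4, and at 751, 732, 1018 and 731 CPM in spleen replicates 1 to 4. It was lower in all 4 skin libraries, by -3.44 ± 0.53 on the log2 scale (SE; adjusted p = 0.0135 with edgeR). The call was lost without spleen replicate 3 (edgeR adjusted p = 0.0502) and kept with each of the other 7 libraries left out. The cytokine gene Ifng ranged over 54.2 to 218 CPM in skin and 42.3 to 285 CPM in spleen. Tnf had no count in skin and reached 29.2 and 74.3 CPM in spleen replicates 3 and 4.

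Of 23 genes of the SGK1 and mTORC1 axis 15 were tested. edgeR called 1 higher (6.67%, against 1.85% of all genes) and 1 lower (6.67%, against 3.58%), while DESeq2 called 3 higher and 1 lower and limma-voom 2 higher and 1 lower. Ndrg1, which encodes the substrate by which SGK1 activity is often read, stood at 69.9, 35.3, 101 and 126 CPM in skin replicates 1 to 4 and had no count in spleen. Its level was at least 220-fold higher, with 3 counts in each spleen library as the limit (edgeR adjusted p = 0.0473). Tbc1d7, a subunit of the TSC complex that inhibits mTORC1, had no count in skin and 49.2, 43.8, 45.2 and 22.3 CPM in spleen replicates 1 to 4. It was at least 104-fold lower by the same limit (edgeR adjusted p = 0.0473). These bounds cover counting error only, and both calls were lost in each of the 8 fits without 1 library. Both were also lost without a filter on low counts, with a block for the replicate number and without the 50 most abundant genes. Rheb, the GTPase that activates mTORC1, averaged 358 ± 23.7 CPM over the skin and 71.8 ± 44.9 CPM over the spleen libraries, and the stress-induced inhibitor gene Sesn3 averaged 67.7 ± 47.1 CPM over the skin and 5.06 ± 3.95 CPM over the spleen libraries (SD, n = 4 each). Neither overlapped between the tissues and neither was called by edgeR (adjusted p = 0.177 for Rheb and 0.322 for Sesn3). DESeq2 called both (adjusted p = 0.0273 for Rheb and 0.00147 for Sesn3), and limma-voom called Rheb (adjusted p = 0.0415) and not Sesn3 (adjusted p = 0.0528).

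**Figure D3:**
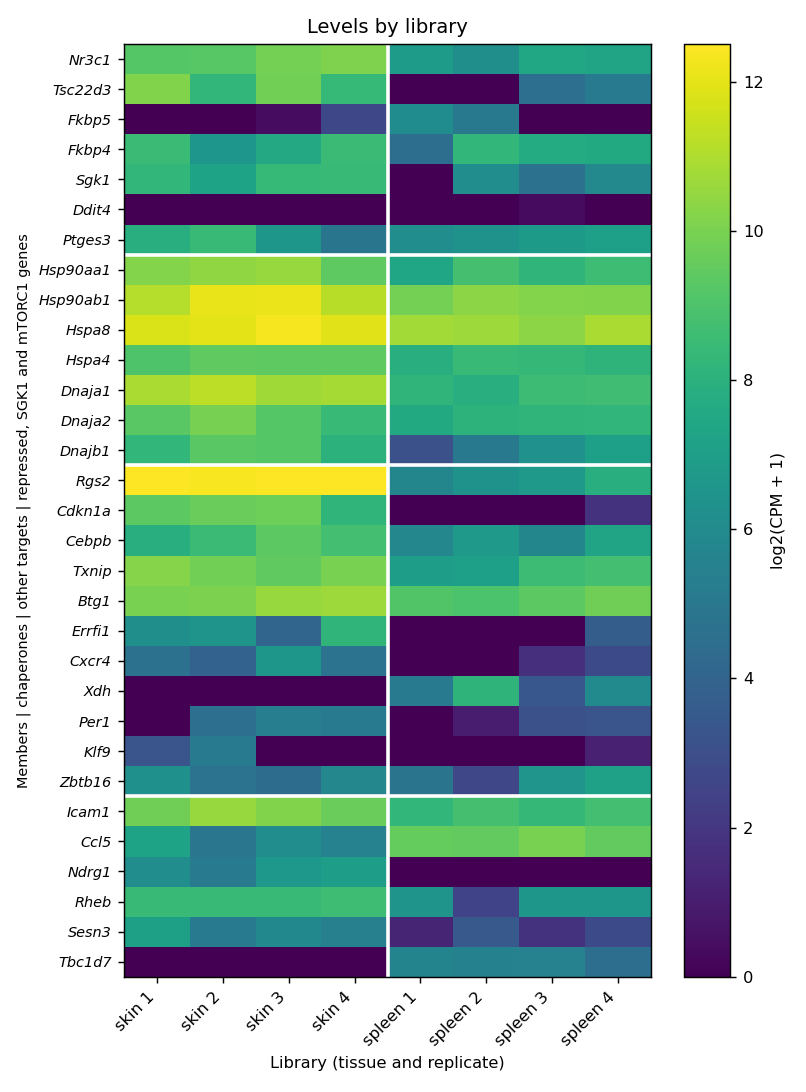
Level in each library, as log2(CPM + 1), of the 7 chosen genes and of pathway genes named in the text, with skin libraries left and spleen libraries right; white lines separate the groups of genes and the tissues. Dnaja1, Hspa8 and Rgs2 are bright in every skin library, Cdkn1a and Ndrg1 are dark in spleen, and Fkbp5 is brightest in spleen replicates 1 and 2.

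The coregulators that the receptor recruits showed no call. Of 27 coregulators 23 were tested with edgeR, and 0 were called in either direction, 0 at an unadjusted p under 0.05, and 0 with DESeq2 or limma-voom. Of all genes tested, edgeR called 1.85% higher and 3.58% lower, so 0 calls is near that share for a list this short. The same holds for the steroid and paralog lists below. The median log2 fold change of the coregulators was -0.06. Crebbp, a histone acetyltransferase, was below every spleen library in all 4 skin libraries, with means of 3.13 ± 3.05 CPM for skin and 30.3 ± 13.6 CPM for spleen (SD, n = 4 each; edgeR adjusted p = 0.454). In the list of steroid metabolism and transport 10 of 19 genes had a count and 4 were tested, with 0 calls by edgeR, DESeq2 or limma-voom and 0 at an unadjusted p under 0.05. Hsd11b1, the reductase that regenerates active hormone inside cells, stood at 150, 146, 147 and 168 CPM in skin replicates 1 to 4, and at 107, 179, 234 and 181 CPM in spleen replicates 1 to 4. The skin range lay inside the spleen range, and the fitted difference was -0.20 ± 0.48 on the log2 scale (SE; adjusted p = 0.998 with edgeR). The enzymes Cyp11a1 and Cyp11b1, which make glucocorticoids, and Hsd11b2, which inactivates them, had no count in any library.

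Among the paralogs of the 7 genes, 13 of 22 had a count and 7 were tested with edgeR, and 0 were called, 0 at an unadjusted p under 0.05 and 0 with DESeq2 or limma-voom. Tsc22d4, which shares the leucine zipper domain of GILZ, stood at 205, 247, 236 and 170 CPM in skin replicates 1 to 4, and at 58.3, 166, 97.3 and 117 CPM in spleen replicates 1 to 4. These values did not overlap, and the gene was not called (log2 fold change 0.97 ± 0.53, SE; edgeR adjusted p = 0.601). Tsc22d2 averaged 52.7 ± 56.7 CPM over the skin and 12.7 ± 11.5 CPM over the spleen libraries (SD, n = 4 each). Tsc22d1 had no count in skin and 53.1 CPM in 1 spleen library.

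The pattern over the 8 libraries was compared with that of 5742 other tested genes with a mean of at least 20 CPM, as the root mean square difference of centred log2 CPM, where 0 is an identical pattern. The nearest genes to Nr3c1 were Cd7, a surface protein of T cells, at 0.36, and the GTPase gene Rab8b, at 0.39, where the median gene was at 3.52. Cd7 stood at 655, 513, 793 and 627 CPM in skin replicates 1 to 4, and at 136, 97.2, 131 and 155 CPM in spleen replicates 1 to 4. Nearest to Tsc22d3 were Spty2d1 (0.62) and Tiparp, a target of the aryl hydrocarbon receptor (0.69), both with no more than 0.195 CPM in spleen replicates 1 and 2. Nearest to Sgk1 were Aim1 (0.36) and Ormdl3, a regulator of sphingolipid synthesis (0.52), both with no count in spleen replicate 1. Fkbp4 was nearest to the splicing factor gene Tra2b (0.44) and to Pptc7 (0.47), and Ptges3 to Rab7 (0.39) and Tprgl (0.45). Fkbp5 had no near neighbour, with Cep72 at 2.05 and Taf4a at 2.41. The chosen genes were not each other's nearest: 919 genes were nearer to Nr3c1 than Fkbp4, the nearest of the other 5 members compared, and 188 were nearer to Tsc22d3 than Sgk1 was. The points share their libraries, depth and zeros, so these distances describe the libraries alone.

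**Figure D4:**
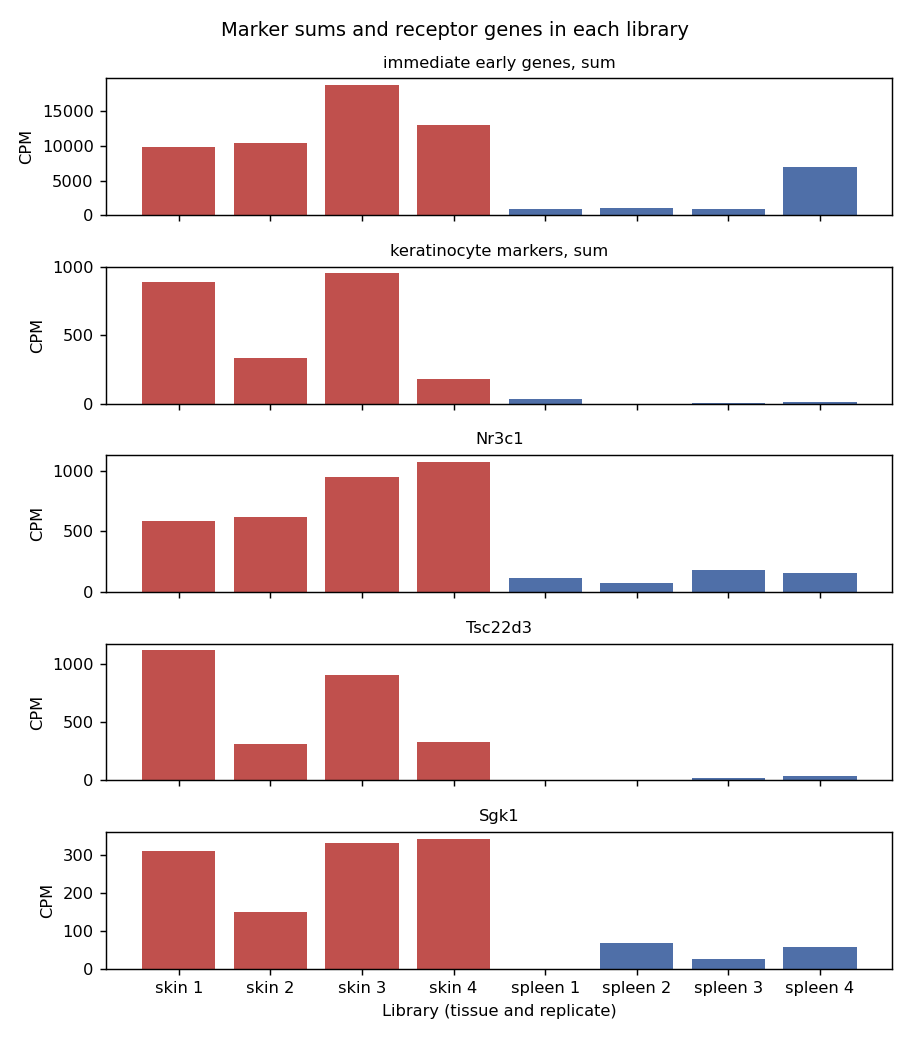
Summed CPM of 16 immediate early genes and of 10 keratinocyte markers, and CPM of Nr3c1, Tsc22d3 and Sgk1, in each library, with skin libraries in red at the left and spleen libraries in blue at the right; bars start at 0. Spleen replicate 4 is high in the immediate early sum (6959 CPM). Its Nr3c1 level (159 CPM) and Sgk1 level (57.4 CPM) lie within the range of the other spleen libraries. Its Tsc22d3 level (33.6 CPM) is the highest in spleen. Tsc22d3 is highest in skin replicates 1 and 3, as is the keratinocyte sum. Whether these levels are related to the sums was not tested.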

How the data were processed

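The authors deposited RSEM expected counts per gene for 8 libraries, with mm9 as the build, per the submitters' processing notes. FastQC and DESeq2 1.16.1 are named there as well. Neither aligner nor annotation is given in the sources used here. Libraries were made with SMART-Seq v4, which does not mark the strand, and sequenced in pairs, per the labels' protocols. Columns were matched to libraries by the labels' descriptions, and 0 columns were left unused.

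Expected counts were rounded. edgeR 4.0.16 (R 4.3.3; filterByExpr, TMM, robust glmQLFit and glmQLFTest, tissue as the only term) tested 6920 of 22549 genes with Benjamini-Hochberg adjustment at 0.05. CPM use TMM-scaled library sizes, and the SE is the log2 fold change over the root of F. Any 2 libraries differed by a chi-square of at least 112 per degree of freedom, so no library's counts were a copy of another's. This cannot tell whether the libraries came from separate RNA or separate animals. Reads carry no molecular identifiers, so floors of 3 counts cover counting error only.

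The members and 7 pathway lists (167 genes, all in the table) were chosen with earlier results of these data known. Named were the members, their paralogs, up to 3 called genes each way and 3 uncalled genes without overlap from each list, and the 2 genes nearest in pattern to each member; Hsp90aa1, Hspa4, Txnip, Dusp1, Klf9, Per1, Mt1, Zbtb16, Il7r, Ifng, Tnf, Btg1, Hsd11b1, Hsd11b2, Cyp11a1 and Cyp11b1 were named after their values were seen. A gene that the rule names is not reported here. Alternatives were RLE and upper-quartile scaling, 2 other filters, DESeq2 1.42.0, limma-voom (limma 3.58.1), rounding down, a block for the replicate number, and leaving out the 50 most abundant genes or each library. A looser motif was added after seeing the data. Promoter sequences are RefSeq's for GRCm38.p6, not the build of the counts.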

Additional observations from a re-analysis of the deposited data

Results flagged for a closer look

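A library far from the 3 others of its tissue was looked for in 55 groups of 4 libraries, and 10 were found. Chance gives about 1 in 20 where values are normally spread. That rate does not hold for groups where only 1 library has a count, as in several here, so the 10 cannot be set against it. Among the receptor genes, Fkbp5 stood at 5.65 CPM in skin replicate 4 while the other skin libraries held 0 to 0.341 CPM. Sgk1 stood at 150 CPM in skin replicate 2 and at 310 to 343 CPM in the others.

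Among pathway genes, spleen replicate 4 alone carried Cdkn1a (2.53 CPM) and Errfi1 (12.0 CPM) in spleen. Cxcr4 stood at 96.4 CPM in skin replicate 3 and at 14.4 to 25.7 CPM in the others. Ccl5 stood at 1018 CPM in spleen replicate 3 and at 731 to 751 CPM in the others. Rheb stood at 393 CPM in skin replicate 4, where the others were at 341 to 350 CPM, and at 4.67 CPM in spleen replicate 2, where the others were at 89.3 to 97.5 CPM. Ptges2 was at 53.0 CPM in skin replicate 4 alone in skin, and Tsc22d1 at 53.1 CPM in spleen replicate 2 alone in spleen.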

How the results depend on the processing

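The 5 fitted members kept a log2 fold change above 0 in all 9 settings and in the 8 fits without 1 library, and apart from Tsc22d3 under the replicate block (8.32, against 5.57) each moved by less than its SE. Counts of calls moved more. Genes higher in skin numbered 128, but 295 with DESeq2, 207 with limma-voom and 56 without the 50 most abundant genes. Genes lower in skin numbered 248, but 48 without a filter, 447 with DESeq2, 500 with limma-voom and 48 without the 50 most abundant genes. Pathway genes higher numbered 11, but 7 without a filter, 17 with DESeq2 and 3 without the 50 most abundant genes, which hold 3 of the 11; those lower numbered 2, but 1 without a filter and 1 without the 50 most abundant genes. Leaving out 1 library gave 47 to 102 higher and 17 to 111 lower genes, and 3 to 8 higher and 0 to 2 lower pathway genes. The replicate block left 36 higher and 14 lower genes, and 3 and 1 pathway genes. Deviations of same-numbered libraries had correlations of 0.00175 to 0.0105 in 4 pairs, and 1 of 4 skin libraries was closest to its own number. Differently numbered libraries had correlations of -0.0270 to 0.0435. With all values this near 0, the check cannot tell whether same-numbered libraries share an animal. The main fit did not take the numbers as pairs. Of 171 list counts and member values under the 9 settings, 155 stayed within 1.5-fold of the reported count or within the spread between replicates. Many of the 155 were list counts of 0 that stayed at 0. They also hold Tsc22d3 at 8.32, since its spread is wide where libraries have no count. The 155 therefore overstate how stable the counts above 0 were. Outside the 155, 7 counts went to 0, 2 left 0 and 7 moved by more than 1.5-fold. The causes were not tested. Ddit4 was too sparse for a difference to be seen at this depth, and the cause of its low counts was not tested.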
